A study of Homo sapiens with 6 samples.

Results

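The genes described here are the fibroblast growth factor (FGF) ligands, their receptors, and the genes that ERK signalling downstream of the receptors is known to induce. The 42 members were listed by name, and each was found by its Ensembl ID among the 60107 genes of the raw count table. The rule used no measured values, but the list was chosen with earlier results of these data known. They fall into 22 ligands, 8 receptors and membrane partners, and 12 feedback and target genes. The filter on low counts kept 38 of the 42: 18 ligands, all 8 receptors and all 12 targets.

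RNA came from H9, an established human embryonic stem cell line, at day 9 of a directed differentiation toward nephron progenitor cells, the precursors of the kidney's filtering units. One group of 3 libraries had complete medium with glutamine and the other group of 3 had medium lacking glutamine from the first day. All 6 libraries derive from the same cell line and the same published protocol, and the labels do not say whether replicates were separate cultures, so p-values may measure technical spread only. In the published form of that protocol, recombinant FGF9 protein is added in the last step before the nephron progenitor stage, so the RNA measured here stands for the FGF genes of the cells themselves and not for the FGF they received.

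FGF ligands bind receptor tyrosine kinases (FGFR1 to FGFR4) together with heparan sulfate. The activated receptor signals through adaptor proteins and RAS to the kinase ERK, and ERK raises transcription of genes that include its own inhibitors: the Sprouty (SPRY) and Spred (SPRED) proteins, the phosphatases DUSP4 and DUSP6, the membrane inhibitor IL17RD (also called SEF), and the ETS transcription factors ETV1, ETV4 and ETV5. In the kidney, FGF9 and FGF20 are known to keep nephron progenitors undifferentiated, FGF8 is needed for early nephrons to survive and mature, and FGF7 and FGF10 act on the ureteric bud through FGFR2.

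Where 3 values are given for a group, they are those of replicates 1, 2 and 3 in that order. The libraries held 78220507 to 84746566 counts. Replicate 1 with glutamine stood apart from its group: its correlation with the other libraries of its group was 0.9758 and 0.9762 (Pearson's r over genes on the log2 scale, where the genes are no replicates of each other), against 0.9908 to 0.9927 with the libraries lacking glutamine. Many results are therefore given with and without it. The nephron progenitor and intermediate mesoderm markers were present, with a summed level of 984 to 1665 CPM (counts scaled per library to a common total, with TMM factors) with glutamine and 1543 to 2067 without, although HOXD11 reached at most 0.542 CPM with glutamine. SIX2, the defining marker of nephron progenitors, was at 6.57, 34.8 and 27.9 CPM with glutamine and at 7.27 to 9.70 without. Markers of other cell types also differed between libraries. The 8 primitive streak and presomitic mesoderm markers summed to 6.78, 25.3 and 24.7 CPM with glutamine and to 6.51 to 8.56 without. All 7 kept were lower without glutamine. The 7 neural ectoderm markers summed to 80.2, 46.8 and 45.01 CPM with glutamine and to 69.2 to 93.3 without (3 kept higher, 3 lower). The 6 ureteric bud and nephric duct markers summed to 16.6, 8.80 and 6.63 CPM with glutamine and to 15.1 to 16.2 without. Of those kept, 3 were higher and 1 lower. The 7 somite markers summed to 76.8, 218 and 222 CPM with glutamine and to 83.5 to 120 CPM without. Among them UNCX went the other way, with a mean of 15.8 CPM with glutamine and 26.0 without. The 4 endothelial markers summed to 27.4, 87.6 and 74.4 CPM with glutamine and to 16.0 to 21.5 CPM without. Most of that was KDR, at 24.3, 82.3 and 69.8 CPM with glutamine and at 12.7 to 17.5 without. TEK went the other way, with a mean of 1.95 CPM with glutamine and 2.55 without. The 6 endoderm markers stayed at 2.47 CPM or less in sum, with FOXA2 and AFP at 10 counts or fewer in every library, and the 5 lateral plate markers at 0.988 CPM or less. The 6 pluripotency markers summed to 120 to 192 CPM with glutamine and 221 to 282 without, nearly all of it DPPA4, which was at 184, 126 and 113 CPM with glutamine and at 255, 269 and 212 without. ZFP42 and UTF1 were also higher in every library lacking glutamine, while NANOG and TDGF1 had at most 10 counts and POU5F1 was at 0.151 CPM or less. The part of these cell types in the results below was not tested. In RNA of whole cultures, fewer cells that express a gene and less RNA per cell cannot be told apart.

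The comparison between medium without and with glutamine asked which of these genes differ between the media. In the quasi-likelihood test of edgeR over all 6 libraries, 0 of the 38 members kept had a Benjamini-Hochberg adjusted p under 0.05, where 0.00442% of all 22613 genes tested did. At an unadjusted p under 0.05, 16 members were higher without glutamine and 2 were lower, against 14.7% and 15% of all genes in those directions. The 3 libraries of one group lay entirely above those of the other for 17 members higher without glutamine and for 1 that was lower (FGF20). Over all genes these shares were 17.3% and 16.9%, so 17 of 38 members stood higher where the background share is 17.3%.

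DESeq2 called 9 members higher and 0 lower, against a background of 7.38% higher and 6.3% lower among 22141 genes with an adjusted p. The 9 were FGF3, FGF12, FGF13 and FGF18 among the ligands, FGFRL1 among the receptors, and DUSP4, ETV4, IL17RD and SPRY4 among the targets. Without replicate 1 with glutamine, edgeR called 28 of 38 members, 21 higher and 7 lower. In that fit 22.3% of all genes were called higher and 19% lower, and the member counts are read against those shares. That library was singled out after its likeness to the other group had been seen in these same data. Leaving it out therefore tends to widen the group difference and narrow the spread. The p-values of that fit, here and below, are optimistic for this reason and are given as a description.

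The 3 roles had medians of the same sign. The median log2 fold change (without minus with glutamine) was 0.54 over the 18 ligands kept, 0.34 over the 8 receptors and 0.22 over the 12 targets, against 0.0012 over all genes kept. Without replicate 1 with glutamine the medians were 0.78, 0.40 and 0.21. A low-count gene can pass the filter through the one group where it is high, so the medians were also taken over members with a mean of at least 1 CPM over all 6 libraries. They were 0.40 over 9 ligands, 0.26 over 7 receptors and 0.19 over 11 targets, against 0.0096 over 15594 genes. The ligands counted here include the intracellular FGFs, FGF11 to FGF14, which are not secreted. Secreted ligands alone had a median of 0.47 over the 14 kept and 0.26 over the 6 with at least 1 CPM, near that of the receptors. For the intracellular FGFs it was 0.90 over 4 and 1.39 over 3. Ligands, receptors and targets were not tested against each other. Replicate 1 with glutamine was nearer the libraries lacking glutamine than its own group for 15 of 18 ligands, 6 of 8 receptors and 5 of 12 targets. Nearness was taken on log2(CPM + 0.1), where the added 0.1 weighs most on scarce genes. The share over all genes was not counted. That library correlated more with the other group over all genes, so these counts have no background to be read against.

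**Figure D1:**
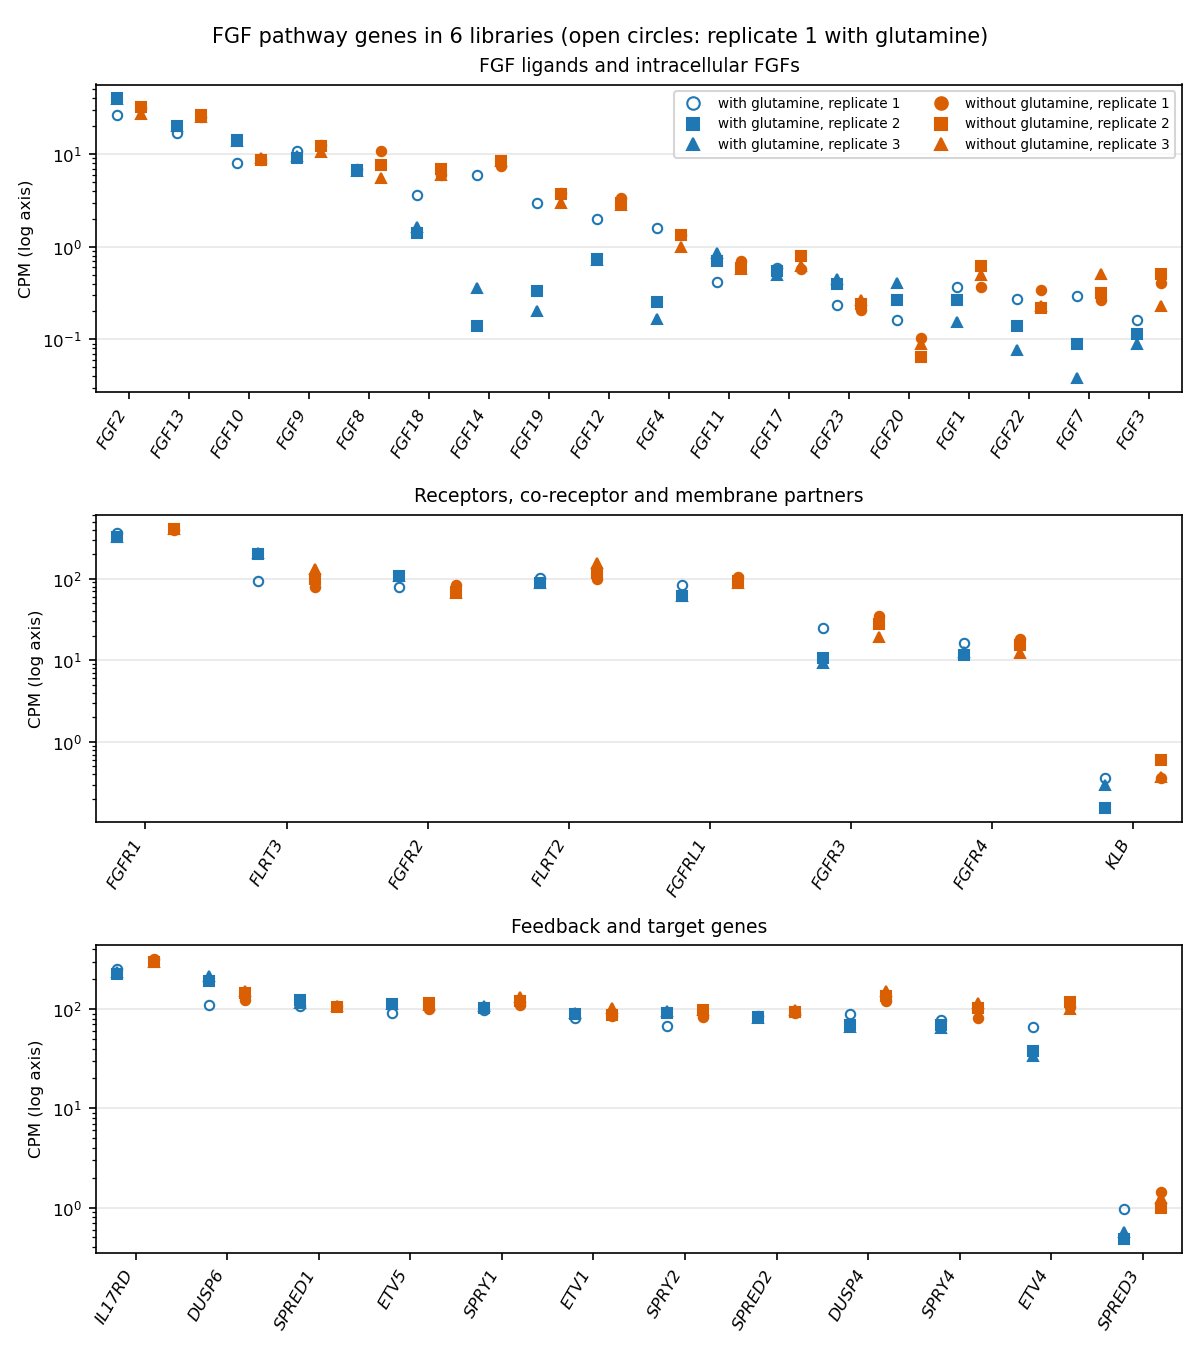
Expression in CPM on a log axis (y) of the 38 members kept by the filter (x), split into ligands, receptors and targets, with 1 point per library. Blue points have glutamine and orange points do not, and the open circle is replicate 1 with glutamine. That circle lies with the orange points for FGF14, FGF19 and FGF4, while for the receptor FGFR1 and the target IL17RD the points of each group lie close together.

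**Figure D2:**
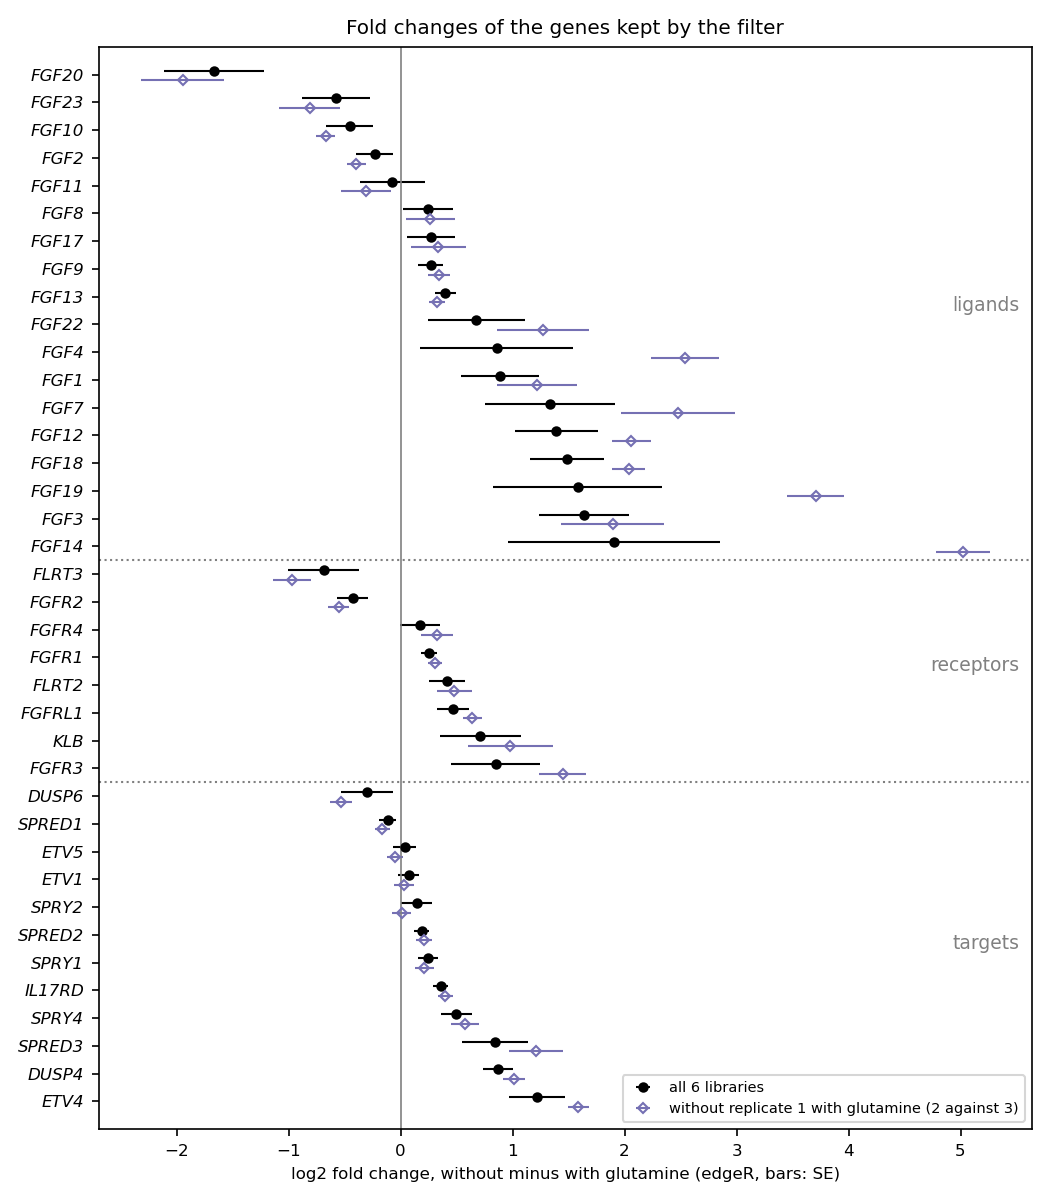
Log2 fold change, without minus with glutamine (x), of each member kept (y), with bars for the standard error. Filled circles use all 6 libraries and open diamonds leave out replicate 1 with glutamine. FGF14 goes from 1.91 to 5.02 and FGF19 from 1.58 to 3.71, whereas most targets move by less.

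Among the secreted ligands, RNA of FGF8, FGF2, FGF10 and FGF9 made up most of the family, and FGF18 was the 1 secreted ligand with a mean of at least 1 CPM that DESeq2 called. Levels of different genes are compared here as CPM per kilobase of exon. FGF2, a ligand of broad receptor range that supports pluripotent stem cells in culture, took 27.9 ± 5.40% of secreted ligand RNA with glutamine and 20.8 ± 1.16% without (SD, n = 3). FGF8 took 25.8 ± 1.18% and 26.0 ± 5.62%. FGF10 took 21.3 ± 5.58% and 13.7 ± 2.11%. FGF9 stayed close, at 11.6 ± 1.25% and 12.2 ± 0.555%. The summed ligand level was 18.6 ± 0.470 CPM per kb with glutamine and 21.5 ± 2.63 without.

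FGF18, a ligand of the FGF8 subfamily known from bone and lung development, is on the plus strand of chromosome 5, from 171419656 to 171457623 (GENCODE 29, GRCh38). It was at 3.62, 1.41 and 1.64 CPM with glutamine and at 5.99, 6.88 and 5.90 without. All libraries lacking glutamine were above all with it, and replicate 1 with glutamine was the highest of its group. The log2 fold change of FGF18 was 1.49 (SE 0.33 and edgeR adjusted p 0.0706), and DESeq2 called it at an adjusted p of 0.000124. Its share of ligand RNA per kb was 6.07 ± 3.49% with glutamine and 14.7 ± 1.77% without (SD, n = 3). Without replicate 1 with glutamine the log2 fold change was 2.04 (SE 0.15 and edgeR adjusted p 5.83e-06).

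The other members of the FGF8 subfamily differed little. FGF8 was at 6.90, 6.68 and 6.66 CPM with glutamine and at 10.7, 7.66 and 5.56 without. The spread lay in the group lacking glutamine, whose lowest library was below the whole other group. Its log2 fold change of 0.24 (SE 0.23 and edgeR adjusted p 0.484) became -0.03 without replicate 1 of the group lacking glutamine. FGF17 was between 0.496 and 0.791 CPM in all libraries.

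FGF10, the mesenchymal ligand of FGFR2 in branching organs, was at 8.09, 14.1 and 13.8 CPM with glutamine and at 8.64, 8.64 and 9.02 without. Replicates 2 and 3 with glutamine were high, and replicate 1 lay below every library lacking glutamine. The log2 fold change was -0.45 (SE 0.21 and edgeR adjusted p 0.195) with all libraries and -0.67 (SE 0.09 and edgeR adjusted p 0.000232) without replicate 1 with glutamine. FGF2 had the same arrangement: it was at 26.6, 40.0 and 39.6 CPM with glutamine and at 31.3, 32.1 and 27.2 without. For FGF2 it was -0.23 (SE 0.17 and edgeR adjusted p 0.373), and -0.39 (SE 0.09 and edgeR adjusted p 0.00506) without that library. FGF2 overlaps NUDT6 on the opposite strand, which had 639 to 902 counts, and, although the library kit marks strand per the labels, the strand setting of the counting is not given in the sources used here.

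FGF9 and FGF20 belong to the subfamily that maintains nephron progenitors. The endogenous FGF9 gene was at 10.7, 9.21 and 9.52 CPM with glutamine and at 12.4, 12.4 and 10.7 without, and the groups met at replicate 1 with glutamine. That was a log2 fold change of 0.27 (SE 0.11 and edgeR adjusted p 0.160), and 0.34 (SE 0.10 and edgeR adjusted p 0.0226) without that replicate. FGF20 had 13, 21 and 32 counts with glutamine against 5 to 9 without, which makes it the 1 member whose libraries lacking glutamine were all below the rest. For FGF20 the log2 fold change was -1.67 (SE 0.44 and edgeR adjusted p 0.0813), and -1.95 (SE 0.37 and edgeR adjusted p 0.00247) without replicate 1 with glutamine. FGF16, of the same subfamily, had 0 to 3 counts and was not kept.

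FGF19, FGF4 and FGF3 are neighbours on chromosome 11, between CCND1 and ANO1. FGF19, an endocrine ligand that acts with FGFR4 and KLB, was at 2.95, 0.333 and 0.204 CPM with glutamine and at 3.80, 3.74 and 2.99 without. FGF4, a ligand of the early embryo, was at 1.59, 0.256 and 0.165 CPM with glutamine and at 1.34, 1.35 and 0.993 without. FGF3, of the FGF7 subfamily, was at 0.160, 0.115 and 0.0891 CPM with glutamine and at 0.407, 0.510 and 0.229 without. Replicate 1 with glutamine was at or near the level of the libraries lacking glutamine for FGF19 and FGF4, but with its own group for FGF3. None of the 3 genes was called by edgeR over all libraries, with log2 fold changes of 1.58 (SE 0.75), 0.86 (SE 0.68) and 1.64 (SE 0.40) and edgeR adjusted p of 0.204, 0.418 and 0.0746. Without that replicate they were 3.71, 2.54 and 1.89, and edgeR called all 3.

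The protein-coding genes on either side were looked up after these values had been seen. CCND1, which encodes the cell cycle regulator cyclin D1 and was on the list of other ERK-responsive genes, was at 364, 88.6 and 96.4 CPM with glutamine and at 560, 467 and 412 without. ANO1, a chloride channel gene at the other end, was at 1.39, 0.0896 and 0.0764 CPM with glutamine and at 1.87, 2.31 and 1.62 without. LTO1, which lies between CCND1 and FGF19 and overlaps the end of CCND1 on the opposite strand, did not follow them: it was at 22.0 to 24.6 CPM in all 6 libraries, with a log2 fold change of 0.03 (SE 0.08 and edgeR adjusted p 0.844). On GRCh38 the stretch runs from 69641087, the start of CCND1, to 70189528, the end of ANO1.

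**Figure D3:**
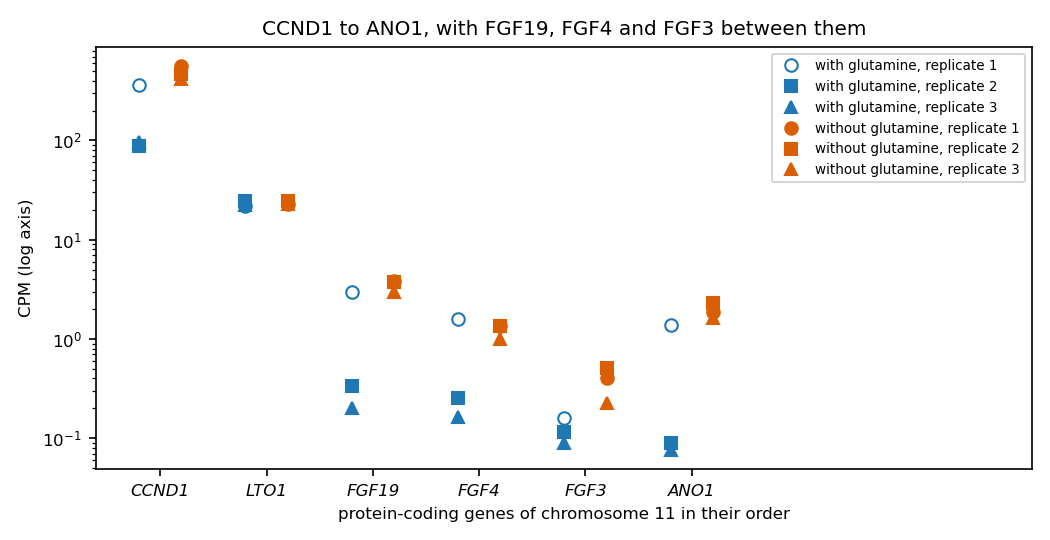
Expression in CPM on a log axis (y) of the 6 protein-coding genes from CCND1 to ANO1 in their order on chromosome 11 (x), with 1 point per library. LTO1 stays at 22.0 to 24.6 CPM, while the other 5 genes are low in replicates 2 and 3 with glutamine. The open circle, replicate 1 with glutamine, lies near the orange points for CCND1, FGF19, FGF4 and ANO1.

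The remaining secreted ligands were scarce. FGF1, FGF7, FGF22 and FGF23 stayed at 0.613 CPM or less in every library. FGF1 was at 0.264 ± 0.109 CPM with glutamine and 0.494 ± 0.120 without, with no overlap between groups (log2 fold change 0.89, SE 0.35, edgeR adjusted p 0.148). Without replicate 1 with glutamine the log2 fold change of FGF1 was 1.22 (SE 0.36 and edgeR adjusted p 0.0217). SPRY4-AS1, which overlaps FGF1 on the opposite strand, had 50 to 108 counts, against 12 to 48 for FGF1. FGF7, which has near-identical pseudogene copies that can share its reads, had 24, 7 and 3 counts with glutamine and 23, 25 and 40 without. That was a log2 fold change of 1.34 (SE 0.58 and edgeR adjusted p 0.175), and 2.48 (SE 0.51 and edgeR adjusted p 0.00377) without replicate 1 with glutamine. FAM227B, on the opposite strand of FGF7, had 456 to 677 counts. The strand setting of the counting is not given, and whether reads of these overlapping genes enter the FGF1 and FGF7 counts was not tested. FGF5, FGF6 and FGF21 had at most 5 counts in any library and were not kept. FGF21 is a hormone-like FGF known to be induced by the transcription factor ATF4 when amino acids run short, and it had 2, 0 and 0 counts with glutamine and 1, 5 and 3 without. No difference was detectable at that depth.

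FGF11 to FGF14 are intracellular FGFs, which are not secreted, do not act through FGF receptors in the usual way and are known for regulating sodium channels. FGF14 was at 5.94, 0.141 and 0.356 CPM with glutamine and at 7.49, 8.38 and 8.51 without. All libraries lacking glutamine were above those with it, but replicate 1 with glutamine was near them and far from its own group. The log2 fold change was 1.91 (SE 0.95 and edgeR adjusted p 0.219), and 5.02 (SE 0.24 and edgeR adjusted p 4.45e-07) without that replicate, so 1 library decides its size and its call. ITGBL1, which overlaps FGF14 on the opposite strand, had 74, 2 and 2 counts with glutamine and 109, 112 and 130 without, the same order of libraries.

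FGF12 was at 2.01, 0.743 and 0.725 CPM with glutamine and at 3.33, 2.99 and 2.85 without. Its groups did not overlap, with a log2 fold change of 1.39 (SE 0.37 and edgeR adjusted p 0.0812), and DESeq2 called it (adjusted p 0.00263). Leaving out replicate 1 with glutamine gave 2.06 (SE 0.18 and edgeR adjusted p 1.73e-05). FGF13 was the most abundant of these genes, at 17.1, 20.3 and 20.4 CPM with glutamine and at 24.9, 26.3 and 25.1 without. Here replicate 1 with glutamine lay on the far side of its own group, away from the libraries lacking glutamine. For FGF13 the log2 fold change was 0.40 (SE 0.10 and edgeR adjusted p 0.0724, DESeq2 adjusted p 0.0158) and 0.33 without that replicate. FGF11 overlapped, at 0.419 to 0.853 CPM.

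Among the receptors, FGFR1 was the most abundant kinase receptor in all 6 libraries and FGFR2 was lower without glutamine, mainly against replicates 2 and 3 with it. FGFR1 was at 360, 325 and 325 CPM with glutamine and at 395, 409 and 402 without. The groups did not overlap and the spread was small. For FGFR1 the log2 fold change was 0.26 (SE 0.07 and edgeR adjusted p 0.0827, DESeq2 adjusted p 0.0525), and 0.31 (SE 0.06 and edgeR adjusted p 0.00328) without replicate 1 with glutamine. LETM2, on the opposite strand of part of FGFR1, had 402 to 595 counts.

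FGFR2, the receptor of FGF7 and FGF10 in epithelia, was at 79.8, 107 and 107 CPM with glutamine and at 83.0, 67.8 and 67.2 without. Replicate 1 with glutamine lay below the highest library lacking it. The log2 fold change was -0.43 (SE 0.14 and edgeR adjusted p 0.109) and -0.55 (SE 0.10 and edgeR adjusted p 0.00142) without that replicate. Counts per gene do not separate the epithelial and mesenchymal splice forms of FGFR1, FGFR2 and FGFR3, which bind different ligands. FGFR3 was at 25.2, 10.7 and 9.23 CPM with glutamine and at 34.5, 27.6 and 19.2 without, with overlap at replicate 1 with glutamine. Its difference was 0.85 (SE 0.40 and edgeR adjusted p 0.199), or 1.45 (SE 0.21 and edgeR adjusted p 0.0005) without that library. FGFR4 overlapped, at 11.8 to 16.1 CPM with glutamine and 12.2 to 18.0 without (log2 fold change 0.17, SE 0.18).

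In the makeup of kinase receptor RNA per kilobase, FGFR2 had a smaller share without glutamine. FGFR1 took 56.4 ± 1.18% with glutamine and 61.5 ± 4.44% without (SD, n = 3), and the groups overlapped. FGFR2 took 23.4, 33.5 and 33.5% with glutamine and 21.8, 18.9 and 19.97% without, so every library with glutamine had the larger share. The ratio of FGFR1 to FGFR2 per kb was 2.47, 1.66 and 1.67 with glutamine and 2.60, 3.30 and 3.28 without. An exact two-sided permutation test of the log2 ratio gave p = 0.1, the smallest that 3 against 3 libraries can give. Over the 5 ratios tested here the raw p was 0.1 to 0.3, and none passes any adjustment.

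**Figure D4:**
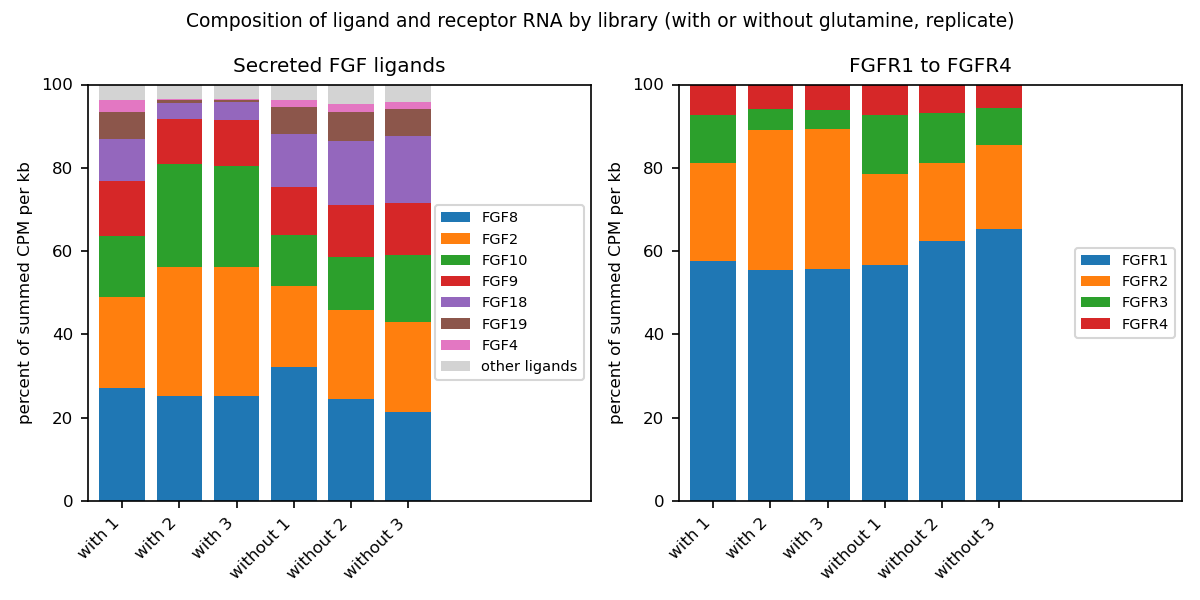
Percent of the summed CPM per kb (y) taken by each gene in each library (x), for the 18 secreted ligands on the left and the 4 kinase receptors on the right. Ligands beyond the 7 most abundant are pooled in grey. FGF18 takes 3.74 and 4.38% in replicates 2 and 3 with glutamine and 12.7 to 16.0% without, and FGFR2 takes 33.5% in those 2 replicates against 18.9 to 21.8% without.

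FGFRL1, a receptor that binds FGFs but has no kinase domain, and that is needed for nephron formation in mice, was at 84.3, 61.7 and 61.0 CPM with glutamine and at 104, 94.4 and 88.3 without. The groups did not overlap. Its log2 fold change was 0.47 (SE 0.14 and edgeR adjusted p 0.0932), and DESeq2 called it (adjusted p 0.0263). Without replicate 1 with glutamine, the highest of its group, it was 0.64 (SE 0.08 and edgeR adjusted p 0.000225). KLB, the co-receptor for endocrine FGFs, was at 0.154 to 0.357 CPM with glutamine and 0.360 to 0.600 without, groups that only just did not overlap. Of the transmembrane FLRT proteins, which can associate with FGF receptors, FLRT3 was at 94.7, 198 and 208 CPM with glutamine and at 78.4, 99.8 and 133 without, and FLRT2 at 88.3 to 101 CPM with glutamine and 99.0 to 156 without. FLRT3 overlapped only through replicate 1 with glutamine (log2 fold change -0.69, SE 0.32, edgeR adjusted p 0.192, and -0.97, SE 0.17, adjusted p 0.0015 without it), and FLRT2 was 0.42 (SE 0.16 and edgeR adjusted p 0.147).

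The feedback and target genes were per kb more abundant than any ligand, SPRED3 excepted, and they split. Of the 12, 7 were higher in every library lacking glutamine than in any with it (ETV4, DUSP4, IL17RD, SPRY4, SPRY1, SPRED2 and SPRED3), against 17.3% of all genes. ETV5, ETV1, SPRY2 and SPRED1 overlapped, and DUSP6 was lower against 2 of the 3 libraries with glutamine. In CPM per kb, DUSP6 was the highest of the 12 with glutamine (37.2), followed by SPRY2 (27.8), SPRY1 (25.7) and IL17RD (24.9). Without glutamine IL17RD (31.9), SPRY2 (30.7), SPRY1 (30.4), DUSP6 (30.2) and ETV4 (29.7) were close together, where ETV4 had been at 12.8 with glutamine.

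ETV4, an ETS factor of the PEA3 group that acts with ETV5 in ureteric bud branching, is on the minus strand of chromosome 17, from 43527844 to 43579620. It was at 66.6, 37.7 and 33.8 CPM with glutamine and at 104, 117 and 100 without. All libraries lacking glutamine were above all with it, and replicate 1 was the highest of its group. The log2 fold change was 1.22 (SE 0.25 and edgeR adjusted p 0.0689), and DESeq2 called it at an adjusted p of 2.12e-05. Without replicate 1 with glutamine it was 1.59 (SE 0.09 and edgeR adjusted p 1.57e-06). DHX8, which overlaps ETV4 on the opposite strand, had 6426 to 7342 counts with no order by group.

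ETV5 and ETV1, the other PEA3-group factors, did not follow ETV4. ETV5 was at 91.2, 111 and 113 CPM with glutamine and at 101, 114 and 109 without. Its log2 fold change was 0.04 (SE 0.10 and edgeR adjusted p 0.825), with a sign that turned under upper quartile scaling (-0.0063) and without replicate 1 with glutamine (-0.05). ETV1 was at 81.0 to 90.4 CPM with glutamine and 85.1 to 103 without (log2 fold change 0.07, SE 0.10). The ratio of ETV4 to ETV5 per kb within a library, which no scaling of libraries can change, was 1.18, 0.545 and 0.480 with glutamine and 1.66, 1.65 and 1.48 without (exact two-sided permutation p = 0.1).

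The 2 phosphatases also differed from each other. DUSP4, a nuclear phosphatase of ERK and related kinases, was at 88.6, 68.6 and 66.3 CPM with glutamine and at 121, 136 and 152 without. Its groups did not overlap, and its log2 fold change was 0.87 (SE 0.14 and edgeR adjusted p 0.068, DESeq2 adjusted p 4.31e-06) or 1.02 (SE 0.10 and edgeR adjusted p 3.83e-05) without replicate 1 with glutamine. DUSP6, the cytoplasmic ERK phosphatase often read as a measure of FGF signalling, was at 111, 190 and 215 CPM with glutamine and at 122, 146 and 152 without. Replicate 1 with glutamine was the lowest of all 6 libraries and replicates 2 and 3 the highest. With all libraries the log2 fold change of DUSP6 was -0.30 (SE 0.23 and edgeR adjusted p 0.407), and without that replicate -0.53 (SE 0.10 and edgeR adjusted p 0.00209). The ratio of DUSP4 to DUSP6 per kb was 0.511, 0.230 and 0.197 with glutamine and 0.631, 0.594 and 0.640 without (exact two-sided permutation p = 0.1).

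The Sprouty proteins block signalling between receptor and RAS, and SPRY1 is known to restrain GDNF and FGF signalling in kidney branching. SPRY4 was at 77.7, 68.9 and 64.7 CPM with glutamine and at 81.0, 103 and 114 without, with a log2 fold change of 0.50 (SE 0.14 and edgeR adjusted p 0.0833, DESeq2 adjusted p 0.0162). The groups did not overlap, but 77.7 and 81.0 CPM are close. SPRY1 was at 96.8, 102 and 107 CPM with glutamine and at 109, 121 and 132 without (log2 fold change 0.24, SE 0.09, edgeR adjusted p 0.130). SPRY2 overlapped, at 67.7 to 95.3 CPM with glutamine and 83.7 to 98.2 without. The ratio of SPRY4 to SPRY2 per kb overlapped too, at 0.531, 0.352 and 0.314 with glutamine and 0.448, 0.487 and 0.538 without (exact two-sided permutation p = 0.3). SPRY4-AS1, on the opposite strand of SPRY4, had 50 to 108 counts.

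IL17RD, which holds back ERK signalling from membranes, was the most abundant target by CPM. It was at 251, 226 and 238 CPM with glutamine and at 319, 298 and 298 without, with a log2 fold change of 0.36 (SE 0.07 and edgeR adjusted p 0.0682, DESeq2 adjusted p 0.00624). Replicate 1 with glutamine lay with its own group here, and the fold change without it was 0.40 (SE 0.07 and edgeR adjusted p 0.0013). Of the Spred proteins, which recruit neurofibromin to RAS, SPRED2 was at 81.4 to 84.9 CPM with glutamine and 90.7 to 98.8 without (log2 fold change 0.19, SE 0.07, edgeR adjusted p 0.120). SPRED3 was at 0.487 to 0.974 CPM with glutamine and 0.995 to 1.43 without, and SPRED1 at 106 to 124 and 106 CPM, where the 3 libraries lacking glutamine differed by an SD of 0.303. The log2 fold change of SPRED1 was -0.11 (SE 0.08 and edgeR adjusted p 0.338).

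**Figure D5:**
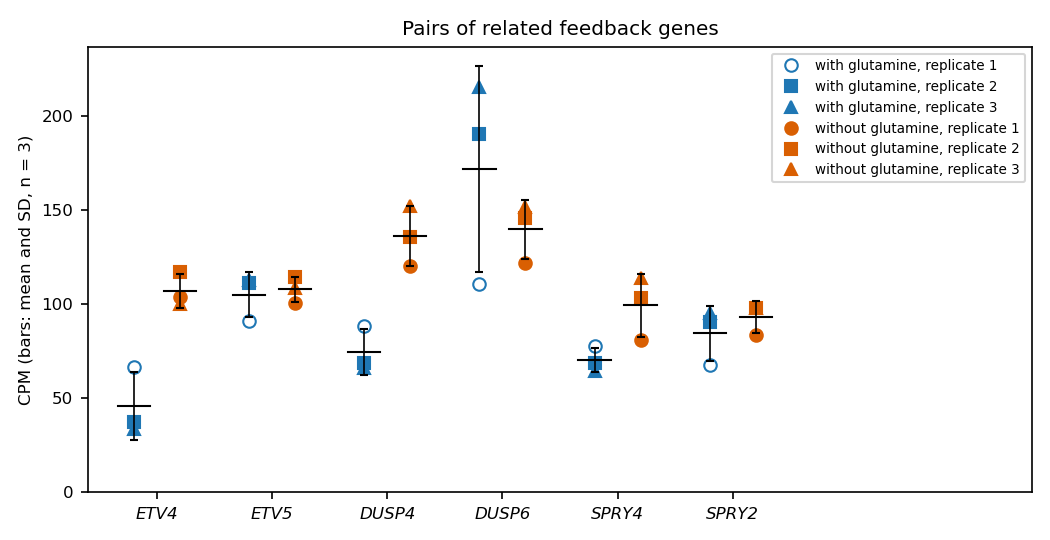
Expression in CPM (y, from 0) of 3 pairs of related feedback genes (x), with 1 point per library, and the mean and SD of 3 libraries in black. ETV4, DUSP4 and SPRY4 are higher in every orange library than in any blue one, whereas ETV5, DUSP6 and SPRY2 overlap, and the open circle of DUSP6 at 111 CPM is the lowest of its gene.

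Sequence just before the start of transcription was taken from RefSeq (GRCh38.p14), which matched 31 of the 42 members. No entry was matched for FGF4, FGF8, FGF9, FGF16, FGF17, FGF19, FGF20, FGFR1, DUSP4, ETV4 and ETV5. The 250 bases before the start are printed whole for FGF18, the most abundant secreted ligand called by DESeq2, and for IL17RD, the most abundant target called by DESeq2, because neither stretch overlaps an annotated exon. Both are written 5′ to 3′ on the strand of the gene, in lower case, since none of the motifs searched was found in them. FGF18 lies on the plus strand at chr5:171419397-171419646, and the bases are 78.8% G or C. IL17RD lies on the minus strand at chr3:57170318-57170567.
FGF18: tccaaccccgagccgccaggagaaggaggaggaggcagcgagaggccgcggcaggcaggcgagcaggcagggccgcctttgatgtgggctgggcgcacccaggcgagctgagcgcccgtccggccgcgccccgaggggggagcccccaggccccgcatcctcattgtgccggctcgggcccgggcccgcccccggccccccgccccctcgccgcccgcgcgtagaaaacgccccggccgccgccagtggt
IL17RD: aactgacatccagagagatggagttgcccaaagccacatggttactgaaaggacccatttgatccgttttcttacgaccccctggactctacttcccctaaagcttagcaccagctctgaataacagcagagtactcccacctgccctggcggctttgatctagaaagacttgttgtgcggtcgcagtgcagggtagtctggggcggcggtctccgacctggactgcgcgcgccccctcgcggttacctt

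The motifs were searched on both strands of the 250 bases, and overlaps between motifs were allowed. CGGAAG and AGGAAG hold the core bound by ETS factors, and TGATGNAA is the core of the amino acid response element bound by ATF4. CGGAAG was found in 16.5% of all 35093 promoter entries and in 3 of the 31 members (DUSP6, FGF23 and SPRY1). AGGAAG was found in 28.7% of entries and in 12 of the 31 members. TGATGNAA was found in 3.15% of entries and in 3 members, FGF21 and FGFR2 among them. The percentages are over promoter entries, whereas members were counted as genes. These figures therefore cannot show whether a motif is more common among members, and that was not tested. Sites of DUSP6, whose groups overlapped, and the amino acid motif sites of FGF21 and FGFR2 are shown with 10 bases on either side and the motif in capitals. A site on the other strand appears as its reverse complement. Both DUSP6 sites are on the other strand of chromosome 12, at chr12:89352548-89352573 and chr12:89352696-89352721, for a gene on the minus strand. The FGF21 site is at chr19:48755460-48755487 (gene on the plus strand) and the FGFR2 site at chr10:121531488-121531515 (gene on the minus strand). The RefSeq starts used for DUSP6 and FGFR2 lie inside the span that GENCODE 29 gives these genes.
DUSP6, CGGAAG: gcaacagcccCTTCCGcagcacgctc
DUSP6, AGGAAG: cttctttctcCTTCCTcccgccgagc
FGF21, TGATGNAA: aacaccaggaTTGCATCAgggaggagga
FGFR2, TGATGNAA: gagcccatccTGATGAAAggaggggtca

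A match in these windows is a description of the sequence only.

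The other genes of the pathway were taken from 3 lists. Of the 22 proteins that carry the signal between receptor and nucleus, all were kept, with a median log2 fold change of -0.02, and edgeR called 0 (6 at an unadjusted p under 0.05, 3 in each direction, against 14.7% higher and 15% lower over all genes). DESeq2 called HRAS higher and SOS1 and BRAF lower, where 7.38% and 6.3% of all genes were called, so these counts are near the background. SOS1, the exchange factor that loads RAS, was at 139, 184 and 172 CPM with glutamine and at 132, 117 and 125 without (log2 fold change -0.41, SE 0.11). BRAF, the kinase below RAS, had a log2 fold change of -0.46 (SE 0.12) and HRAS one of 0.37 (SE 0.09). PLCG1, the phospholipase bound by FGF receptors, was at 397, 397 and 397 CPM with glutamine and at 354, 341 and 345 without (log2 fold change -0.20, SE 0.06, edgeR adjusted p 0.0923). GRB2, an adaptor between receptor and RAS, was higher in every library lacking glutamine, by 0.21 on the log2 scale (SE 0.07).

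Of the 17 carriers, heparan sulfate proteins and other partners, 15 were kept, with a median of 0.12 and 0 calls by edgeR (2 at an unadjusted p under 0.05, 1 in each direction, against 14.7% and 15% of all genes). DESeq2 called SDC2, a syndecan, higher and LRIG3, a membrane protein, lower, against 7.38% and 6.3% of all genes, which is again near the background. SDC2 was at 136, 107 and 116 CPM with glutamine and at 165, 204 and 201 without (log2 fold change 0.67, SE 0.12, edgeR adjusted p 0.068). LRIG3 was at 134, 401 and 406 CPM with glutamine and at 116, 121 and 118 without, so replicate 1 with glutamine lay with the other group. The log2 fold change of LRIG3 was -1.41 (SE 0.38 and edgeR adjusted p 0.0821), and -1.77 (SE 0.06 and edgeR adjusted p 9.4e-08) without that replicate. ANOS1, which binds heparan sulfate and FGFR1, showed the opposite arrangement, at 26.6, 4.84 and 5.59 CPM with glutamine and 28.8 to 33.3 without. The log2 fold change of ANOS1 was 1.32 (SE 0.61 and edgeR adjusted p 0.195), and 2.56 (SE 0.11 and edgeR adjusted p 2.5e-07) without that replicate.

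Of the 21 other ERK-responsive genes, all were kept, with a median of 0.29 and 0 calls by edgeR. At an unadjusted p under 0.05 in edgeR, 8 were higher and 1 lower, against 14.7% and 15% of all genes. DESeq2 called 6 higher (IER3, JUNB, DUSP1, DUSP9, MAFF and EPHA2) and 0 lower, against 7.38% and 6.3% of all genes. In every library lacking glutamine 9 were higher than in any with it, against 17.3% of all genes. The 3 described here had the largest differences among those 9, and of them DESeq2 called DUSP9 only. DUSP5, a nuclear ERK phosphatase, was at 31.5, 11.01 and 11.1 CPM with glutamine and at 39.2, 53.9 and 48.2 without (log2 fold change 1.40, SE 0.41, edgeR adjusted p 0.0914). DUSP9, another ERK phosphatase, was at 28.96, 12.9 and 13.9 CPM with glutamine and at 40.3, 36.3 and 33.7 without (log2 fold change 0.98, SE 0.30, edgeR adjusted p 0.0964). CCND1, given above with its neighbours, had a log2 fold change of 1.39 (SE 0.53 and edgeR adjusted p 0.142). In all 3 genes replicate 1 with glutamine was between the other libraries of its group and those lacking glutamine. The log2 fold changes without that replicate were 2.09 for DUSP5, 1.46 for DUSP9 and 2.38 for CCND1, with edgeR adjusted p of 2.57e-06, 3.89e-06 and 8.28e-07.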

How the data were processed

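The authors deposited raw counts per Ensembl gene and a table of normalized counts, a signal equal in each library to the deposited count divided by 1 size factor (0.9766 to 1.0779). The submitters' processing notes name cutadapt, Trim Galore, FastQC, STAR 2.5.2b, DESeq2 and GRCh38. The counting program, annotation and strand setting are not given in the sources used here. Column headings name days 0 and 9, but all samples are of day 9, and columns were matched through each sample's description.

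Symbols, positions and exon lengths came from GENCODE 29 (56531 of 60107 IDs matched). Raw counts were tested with edgeR 4.0.16 in R 4.3.3 (filterByExpr, TMM, quasi-likelihood F test, legacy = FALSE), with Benjamini-Hochberg adjustment over 22613 genes and a threshold of 0.05. DESeq2 1.42.0 and limma 3.58.1 gave alternatives. The standard error is the absolute log2 fold change divided by the square root of F. The test was checked on simulated data, in which the libraries of a group were drawn alike. Such data hold no library like replicate 1 with glutamine, so the check does not cover its effect.

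Members and lists were chosen with earlier results of these data known, so no p was adjusted over a list alone. Every member is accounted for. Of the other pathway lists, up to 3 genes per direction were named by largest change, where the groups did not overlap and the higher one had a mean of at least 1 CPM. LTO1 and ANO1, and genes that overlap members, were named after their values were seen. Same-numbered samples did not deviate together (correlations -0.021, 8.8e-05 and 0.028). A gene of the pathway lists and a promoter site are not reported here.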

Additional observations from a re-analysis of the deposited data

How the results depend on the processing

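With all 6 libraries, 0 members and 1 gene in all were called. The count of all genes was 0 under upper quartile scaling, the legacy setting, limma-voom and the replicate block, 2 with no filter and 3030 under DESeq2, and it ran from 0 to 9573 with 1 library left out. DESeq2 called 9 members, 3 genes of the ERK pathway list, 2 of the cofactor list and 6 of the other ERK responses. With 1 library left out, these counts ran from 0 to 28, 0 to 11, 0 to 8 and 0 to 12, each highest without replicate 1 with glutamine and 0 in the other 5 fits. The paired fit with the replicate block called 0 members. The cause of these differences was not tested.

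The ligand median of 0.539 ran from 0.370 to 0.779 with 1 library left out. The receptor and target medians stayed at 0.279 to 0.403 and 0.162 to 0.269 in every alternative run. Shares themselves depend on the length scaling: without it, with glutamine, FGF2 took 50.2% of ligand RNA in place of 27.9%, FGFR1 72.7% of receptor RNA in place of 56.4% and FGFR2 21.2% in place of 30.1%. The differences between groups in these 3 shares had the same direction in every alternative run, that one included. Of 532 values for 38 members over 14 alternatives, 489 had the direction and call reported above, 37 gained a call and 6 changed sign, in 4 genes. ETV5 was -0.0063 under upper quartile scaling and ran from -0.0526 to 0.0909 with 1 library left out. FGF8 ran from -0.0259 to 0.444, FGF11 from -0.313 to 0.156 and ETV1 from -0.0205 to 0.126. Members under about 1 CPM rest on few counts, which limits FGF3, FGF7, FGF20 and FGF22 most.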
